A study of Mus musculus with 12 samples.

Results

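The genes described are 37 antiviral interferon-stimulated genes, found by symbol among the 48709 genes of the deposited expression table. They are the Ifit, Oas and Mx families, the cytosolic nucleic acid sensors, the ISG15 system, and other antiviral effectors and regulators. Each symbol matched 1 row, and all 37 passed the filter on low counts, which kept 12455 genes. RNA was sequenced from mouse peritoneal macrophages of Usp5 myeloid knockout mice, here MKO, and of wild-type mice, here WT. Usp5 encodes a deubiquitinase that takes apart free ubiquitin chains. The 12 libraries form 4 groups of 3: MKO and WT cells after 3 h of lipopolysaccharide (LPS), and MKO and WT cells at 0 h. The treatment label names LPS for every sample, 0 h included, although the submitters' design statement mentions mock cells. The promoter that drives the deletion, the strain and age of the mice, and whether replicates came from separate animals are not given in the labels, so p-values measure the spread between these libraries, which may be technical.

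Interferon-stimulated genes are switched on when type I interferons bind the receptor made of Ifnar1 and Ifnar2. The receptor's kinases phosphorylate Stat2, which acts with Irf9 in a complex that binds a promoter element called the interferon-stimulated response element (ISRE). In macrophages, LPS acts through Tlr4, and the branch that runs through Ticam1 and Irf3 induces Ifnb1, whose product then acts back on the cells. Macrophages also keep many of these genes on at a resting level through tonic interferon signalling.

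The targeted gene was low in every library labelled MKO. Usp5 was measured at 27.9, 28.0 and 26.9 CPM (read counts relative to library size, which was scaled by edgeR's TMM method) in MKO 3 h libraries, against 107, 106 and 111 CPM in WT 3 h libraries. At 0 h it was measured at 28.7, 29.0 and 31.4 CPM in MKO libraries, against 101, 112 and 121 CPM in WT libraries, and the groups did not overlap at either time. Total counts ran from 14762709 to 20778862 per library. Libraries 1 and 2 of each group were the closest pair, with a chi-square per degree of freedom of 1.93 to 2.68, against 3.04 to 27.9 for other pairs. The third library of both 0 h groups stood apart. The slope of log2 CPM on log2 exon length was -0.103 in the third MKO 0 h library, against 0.041 and 0.066 in the others. It was 0.019 in the third WT 0 h library, against -0.063 and -0.077 in the others. At 3 h the slope was 0.042 to 0.077 in MKO libraries, against -0.021 to -0.007 in WT libraries, without overlap. The first and second 0 h libraries differed by genotype in the same direction. Malat1 was at 201, 121 and 26.3 CPM in MKO 0 h libraries, against 31.7, 29.9 and 164 CPM in WT 0 h libraries. Its genotype groups overlapped at 3 h. The part of the slope in the genotype differences was not tested. Of 9 macrophage markers, 8 were lower in every MKO library than in every WT library at 3 h, Csf1r being the exception, and 8 at 0 h, where Cd14 was higher. Adgre1 lay at 1810 to 2040 CPM in MKO libraries, against 2920 to 3160 CPM in WT libraries, and Fcgr1 at 774 to 930 CPM in MKO libraries, against 1550 to 1700 CPM in WT libraries. Csf1r differed little, at 1400 to 1570 CPM in MKO libraries, against 1470 to 1580 CPM in WT libraries, and Lyz2 was low throughout, at 11.8 to 43.9 CPM. Of 8 markers of large resident peritoneal macrophages, 5 were under 1 CPM in every library: Gata6, Timd4, Vsig4, Cxcl13 and Prg4. The list was not absent as a whole, since 3 of the 8 passed the filter on low counts. Icam2 was detected in every library and made up 73.4% of the summed level of these markers.

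The ISRE is the sequence feature these genes are known for, so the promoters of 6 members that carry it are printed as examples. Sequences are from RefSeq on GRCm38.p6, 5′ to 3′ on the gene's strand, from 250 bases before to 50 after the annotated start, with matches to the ISRE core (GAAA, any 2 bases, GAAA, on either strand) in capitals; overlapping matches were each counted. Isg15 lies at chr4:156200769-156201068, minus strand. The Ifit1 window is chr19:34640639-34640938, plus strand. Those of Ifit3 and its near copy Ifit3b are chr19:34583279-34583578, plus strand, and chr19:34607707-34608006, plus strand. The Rsad2 window is chr12:26456403-26456702, minus strand, and that of Oas1a is chr5:120907476-120907775, minus strand.
Isg15: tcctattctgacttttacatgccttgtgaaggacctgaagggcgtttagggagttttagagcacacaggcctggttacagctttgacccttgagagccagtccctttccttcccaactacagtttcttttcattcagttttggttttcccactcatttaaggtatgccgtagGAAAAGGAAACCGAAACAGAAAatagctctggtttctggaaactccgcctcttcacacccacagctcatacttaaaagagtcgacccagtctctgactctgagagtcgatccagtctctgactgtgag
Ifit1: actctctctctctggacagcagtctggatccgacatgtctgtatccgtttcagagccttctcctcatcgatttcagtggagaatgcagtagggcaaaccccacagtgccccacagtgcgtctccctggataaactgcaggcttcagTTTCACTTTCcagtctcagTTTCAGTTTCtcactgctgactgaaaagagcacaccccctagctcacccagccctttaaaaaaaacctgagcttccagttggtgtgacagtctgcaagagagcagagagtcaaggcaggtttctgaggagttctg
Ifit3: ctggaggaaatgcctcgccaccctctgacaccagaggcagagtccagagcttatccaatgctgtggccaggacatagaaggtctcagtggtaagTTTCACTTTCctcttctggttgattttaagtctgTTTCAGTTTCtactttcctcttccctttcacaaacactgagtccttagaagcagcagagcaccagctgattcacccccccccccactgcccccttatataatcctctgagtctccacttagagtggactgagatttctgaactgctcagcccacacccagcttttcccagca
Ifit3b: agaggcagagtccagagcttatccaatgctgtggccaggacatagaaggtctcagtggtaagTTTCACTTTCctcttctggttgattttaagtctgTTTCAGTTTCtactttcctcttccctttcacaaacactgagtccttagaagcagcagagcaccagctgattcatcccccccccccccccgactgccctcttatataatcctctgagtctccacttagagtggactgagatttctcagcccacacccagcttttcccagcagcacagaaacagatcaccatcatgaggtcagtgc
Rsad2: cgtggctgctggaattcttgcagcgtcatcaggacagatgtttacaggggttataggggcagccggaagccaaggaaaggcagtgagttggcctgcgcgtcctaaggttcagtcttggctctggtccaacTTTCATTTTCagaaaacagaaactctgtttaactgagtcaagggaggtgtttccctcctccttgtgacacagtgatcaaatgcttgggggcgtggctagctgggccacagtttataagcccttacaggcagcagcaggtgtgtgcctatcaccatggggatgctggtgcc
Oas1a: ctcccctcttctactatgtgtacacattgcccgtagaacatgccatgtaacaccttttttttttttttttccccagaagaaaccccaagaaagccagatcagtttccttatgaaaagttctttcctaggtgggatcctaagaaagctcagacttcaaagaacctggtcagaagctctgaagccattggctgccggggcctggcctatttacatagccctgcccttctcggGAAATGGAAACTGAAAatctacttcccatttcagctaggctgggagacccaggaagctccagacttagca

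Isg15 carried 3 overlapping ISRE cores, which begin 78, 72 and 66 bases before the start. Ifit1 carried 2, on the other strand, which begin 104 and 85 bases before the start. The pair in Ifit3 begins 156 and 122 bases before its start and the pair in Ifit3b 188 and 154 bases before. Promoters of 28 of the 37 members were in the RefSeq table, and 17 of these 28 (60.7%) held at least 1 ISRE core, against 1079 of 27025 genes (3.99%). The gamma-activated site, searched as TTCNNNGAA, was found in 7 of 28 members (25.0%), against 9.55% of genes. A kappaB motif, searched as GGG, any 2 bases and TTTCC on either strand, was found in 0 of 28 members, against 1.89% of genes. A match is a description of the letters, and a promoter without one says only that these letters are not in this window. Oas2, Mx1, Mx2, Dhx58, Zbp1, Usp18, Parp9, Parp14 and Rtp4 had no entry.

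**Figure D1:**
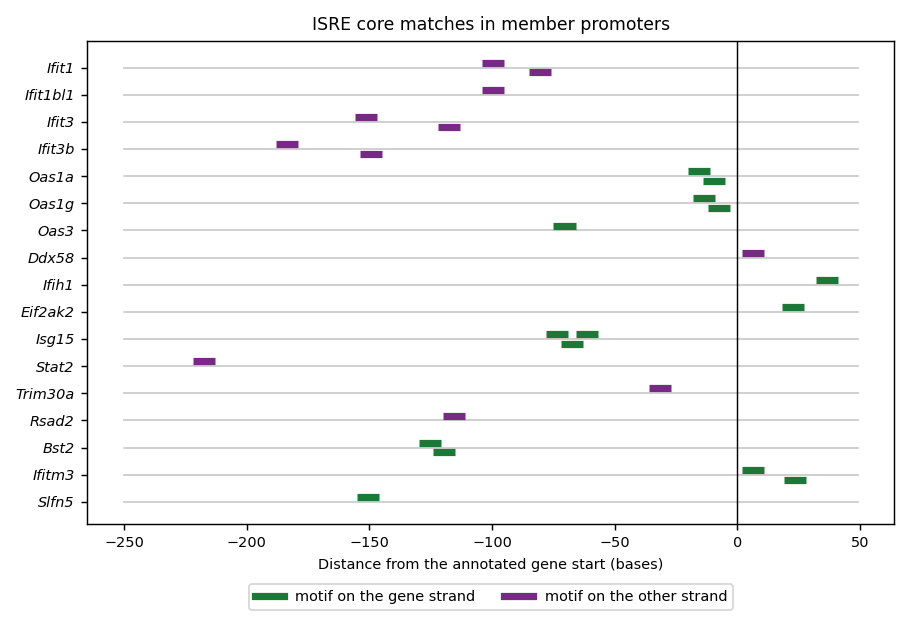
Matches to the ISRE core in the promoters of the 17 members that hold one, by distance in bases from the annotated gene start; bars are matches, coloured by strand. In Isg15 3 matches overlap, and in Ifit1, Ifit3 and Ifit3b the matches lie on the strand opposite to the gene.

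The 37 members lie on 13 chromosomes, and 20 of them sit in 7 clusters with gaps of at most 1 Mb (mm10). The 5 Ifit genes span 99.3 kb at chr19:34550694-34650009, and Oas2, Oas3, Oas1g and Oas1a span 177 kb at chr5:120730333-120907521. Rsad2 and Cmpk2 are neighbours at chr12:26442753-26479835. Usp18 lies 3.54 Mb from the deleted Usp5 gene and Herc6 lies 67.2 Mb from it on the same chromosome.

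Per length, the most abundant member was Ifitm3, a membrane protein that blocks virus fusion, with a mean of 4977 TPM (reads relative to gene length and library, as deposited) over the 12 libraries. Bst2, or tetherin, which holds budding virus particles on the cell, followed with 1591 TPM. Ifit2, Isg15 and Ifit3 came next, with 1275, 1249 and 1112 TPM. These means pool groups that differ, and the order below Ifitm3 was not the same in each group. In WT 3 h libraries Isg15 averaged 1733 ± 70.0 TPM and Bst2 1668 ± 49.97 TPM (SD, n = 3), within their spread, whereas Bst2 was second in the other groups. Ifit2 averaged 1019 ± 20.7 TPM and Isg15 1005 ± 89.6 TPM in MKO 3 h libraries (SD, n = 3), also within their spread. In WT 0 h libraries Ifit3, at 1499.6 ± 109 TPM, was above Isg15, at 1309 ± 45.6 TPM (SD, n = 3). Mx2 was the least abundant in each group, with a mean of 32.0 TPM. Every member had counts in every library, those at 0 h included.

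After 3 h of LPS, all 37 members were called lower in MKO than in WT macrophages. Among all 12455 genes tested, 23% were called lower and 19.8% higher in this comparison (edgeR's quasi-likelihood test, Benjamini-Hochberg adjusted p under 0.05). The members' median log2 fold change was -0.62, which is 65.1% of the WT level, against a median of -0.01 over all genes. Every MKO library lay below every WT library for 37 of 37 members, a pattern found for 32.5% of all genes. Differences ran from -1.58 for Oasl1 to -0.32 for Eif2ak2, and 9 members were at least 2-fold lower. Summed over members, MKO 3 h libraries held 13259.8 to 13299 CPM, against 22787 to 23216 CPM in WT 3 h libraries. In bulk samples, fewer cells of a type and less RNA per cell cannot be told apart, and the summed level of 9 macrophage markers was also lower, at 8020 to 8300 CPM in MKO, against 12200 to 12500 CPM in WT libraries; its part in the result was not tested.

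With library-size scaling in place of TMM, the median of all genes in this comparison moved to 0.24, 43.5% of genes were called higher and 9.63% lower, the members' median was -0.37, and 32 members were called lower. The 5 members no longer called were Oas2, Oas3, Eif2ak2, Trim25 and Slfn5, and all 37 log2 fold changes stayed negative.

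**Figure D2:**
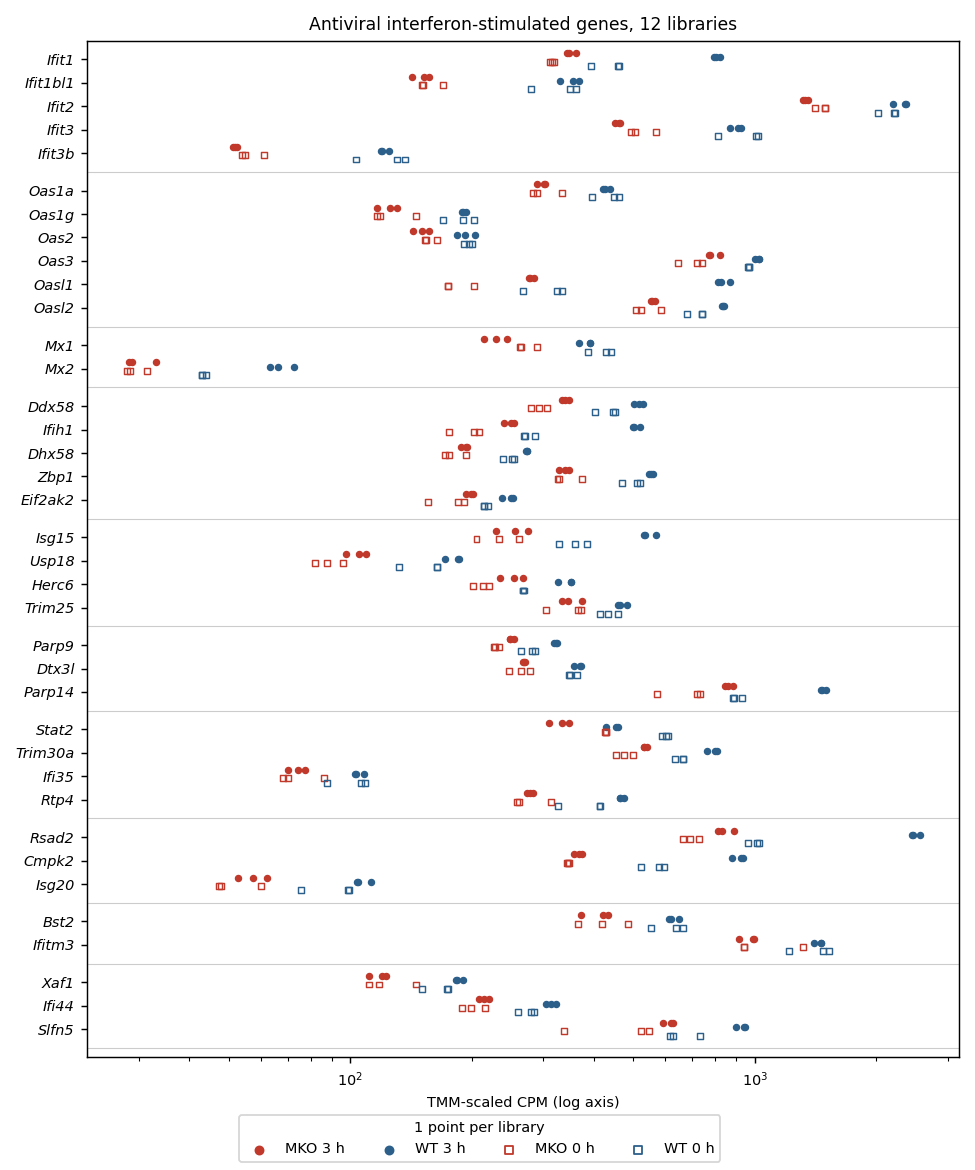
TMM-scaled CPM (log axis) of the 37 members in the 12 libraries, 1 point per library, grouped by role. MKO points lie left of WT points at 3 h for all 37 members, and at 0 h for all except Ifitm3.

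At 0 h, before LPS, all 37 members were again called lower in MKO than in WT macrophages. Of all genes tested, 16.4% were called lower and 16.5% higher. The members' median log2 fold change was -0.49 (71.1% of the WT level), against a median near 0 over all genes, and the range was -1.12 for Ifit3b to -0.28 for Parp9. The groups did not overlap for 36 members, Ifitm3 being the exception, and 19.8% of all genes showed this pattern. Summed over members, MKO 0 h libraries held 12604 to 12871 CPM, against 17191 to 18771 CPM in WT 0 h libraries. The macrophage marker sum was 7300 to 8250 CPM in MKO 0 h libraries, against 10500 to 11600 CPM in WT 0 h libraries, and its part was not tested. Of its markers Cd14 went the other way, at 359 to 420 CPM in MKO 0 h libraries, against 283 to 314 CPM in WT 0 h libraries. The third WT 0 h library was the lowest of its group for 29 of 37 members, and the third MKO 0 h library the highest of its group for 23. Without both of these libraries, a setting added after seeing the data, all 37 members were again called lower, as were 23.5% of all genes. With library-size scaling, the median of all genes was 0.12, 25.8% of genes were called higher and 9.59% lower, and 33 members were called lower, without Eif2ak2, Ifitm3, Slfn5 and Trim25. With replicates 1 and 2 summed, 7.91% of all genes and 32 members were called lower, without Eif2ak2, Ifi35, Ifitm3, Rtp4 and Xaf1.

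**Figure D3:**
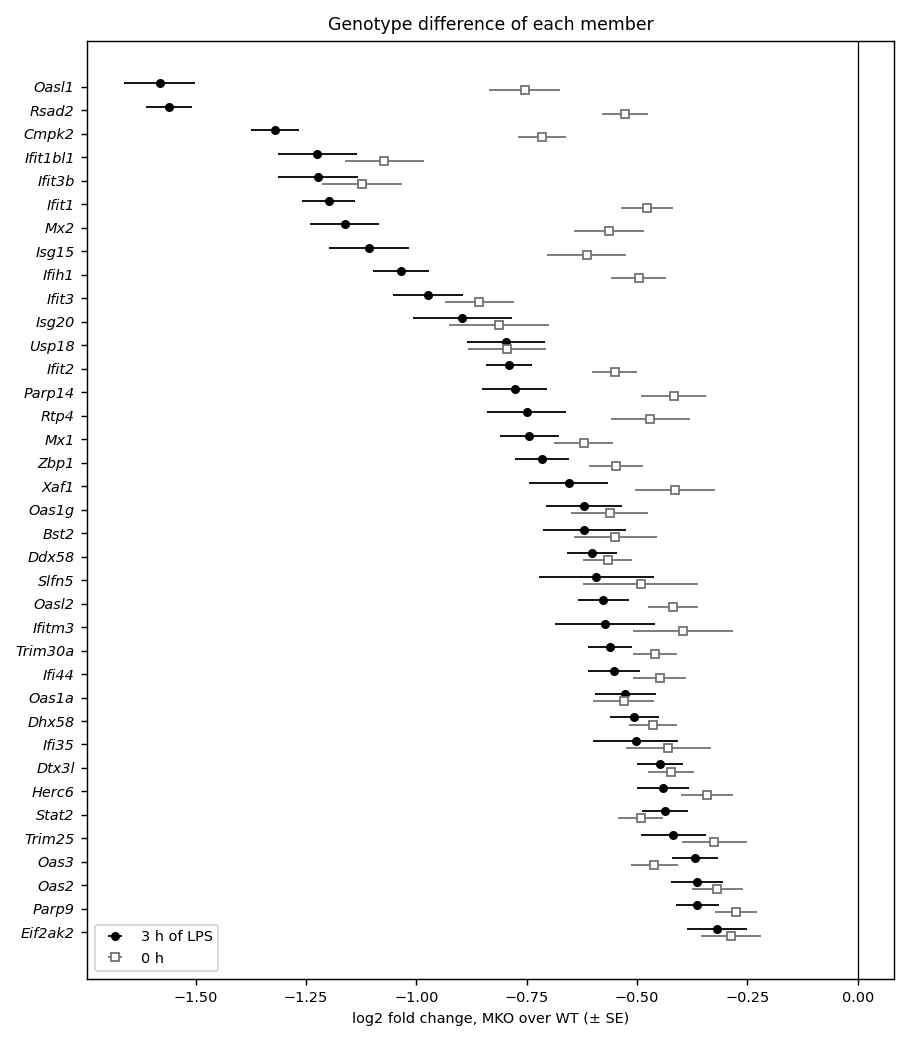
Fitted log2 fold change, MKO over WT, of each member at 3 h of LPS (filled circles) and at 0 h (open squares), with standard errors. All points lie left of 0, from -1.58 for Oasl1 at 3 h to -0.28 for Parp9 at 0 h.

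The Ifit proteins bind viral RNA and block its translation, and all 5 members were lower in MKO at both times. Ifit1, which recognises RNA caps that lack a host methyl mark, was measured at 3 h at 344, 348 and 362 CPM in MKO libraries, against 819, 805 and 794 CPM in WT libraries. At 0 h Ifit1 was measured at 311, 319 and 315 CPM in MKO libraries, against 463, 459.9 and 394 CPM in WT libraries. The MKO libraries were below the WT libraries at both times, and the WT 3 h libraries were the highest of all 12. The log2 fold change of Ifit1 was -1.20 ± 0.060 (SE), edgeR adjusted p = 3.20e-09 at 3 h and -0.48 ± 0.059 (SE), edgeR adjusted p = 3.16e-05 at 0 h. Ifit2, which binds AU-rich RNA, was measured at 3 h at 1316, 1334 and 1357 CPM in MKO libraries, against 2372, 2352 and 2204 CPM in WT libraries, a log2 fold change of -0.79. Its 0 h levels were 1497, 1495 and 1407 CPM in MKO libraries, against 2206, 2219.9 and 2017 CPM in WT libraries, a log2 fold change of -0.55. The Ifit2 groups did not overlap at either time.

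Ifit1bl1, an Ifit1-like gene, was measured at 3 h at 142, 157 and 153 CPM in MKO libraries, against 368, 356 and 331 CPM in WT libraries. The 0 h libraries gave 150.3, 151 and 169 CPM in MKO libraries, against 349.6, 361 and 279.5 CPM in WT libraries. Its MKO level was 42.8% of WT at 3 h and 47.6% at 0 h, so the genotypes differed by over 2-fold before LPS. Ifit3b, a near copy of Ifit3, which strengthens Ifit1's grip on RNA in human cells, was measured at 3 h at 52.4, 51.9 and 51.3 CPM in MKO libraries, against 119.8, 119 and 125 CPM in WT libraries. Before LPS, levels were 54.0, 54.9 and 61.0 CPM in MKO libraries, against 130.5, 137 and 103 CPM in WT libraries. This was the widest genotype difference of any member at 0 h, at -1.12 ± 0.090 (SE), edgeR adjusted p = 6.24e-07. Ifit3 had a log2 fold change of -0.97 at 3 h and -0.86 at 0 h. Of the 50-base stretches in Ifit3 exons 51.2% also occur in other genes, all of them in Ifit3b, so reads may have been split between these copies.

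Oas enzymes sense double-stranded RNA and make the second messenger that activates RNase L. All 6 members of the Oas family, Oas-like proteins included, were lower in MKO at both times. Oasl1, an Oas-like protein without that enzyme activity, which in mouse represses translation of Irf7 messenger RNA, was measured at 3 h at 278, 276 and 285 CPM in MKO libraries, against 827, 812 and 871 CPM in WT libraries. Without LPS it stood at 174, 174 and 202 CPM in MKO libraries, against 325, 335 and 268 CPM in WT libraries. It had the widest difference of any member at 3 h, at -1.58 ± 0.081 (SE), edgeR adjusted p = 3.83e-09, or 33.4% of the WT level. Oasl2, an Oas protein with ubiquitin-like domains, was measured at 3 h at 553, 568 and 558 CPM in MKO libraries, against 838, 832 and 833 CPM in WT libraries. Values at 0 h were 508, 522 and 586 CPM in MKO libraries, against 740.0, 739 and 679 CPM in WT libraries. Its groups did not overlap at either time, at 67.1% and 74.8% of the WT level at 3 h and 0 h.

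Oas1a, a 2-5A synthetase, was measured at 3 h at 303, 302 and 289 CPM in MKO libraries, against 427, 440.2 and 421 CPM in WT libraries. Measured at 0 h, it was at 289, 283 and 333 CPM in MKO libraries, against 449.5, 461 and 397 CPM in WT libraries. The difference was -0.53 at 3 h and -0.53 at 0 h, and 57.6% of the 50-base stretches of its exons also occur in Oas1g or Oas1b. Oas2 was measured at 3 h at 151, 157 and 143 CPM in MKO libraries, against 192, 183 and 203 CPM in WT libraries, and Oas3 at 774, 770.3 and 821 CPM in MKO libraries, against 1025, 1005 and 1026 CPM in WT libraries. Both were lower in MKO in every library. At 0 h Oas2 was at 154, 153 and 164 CPM in MKO libraries, against 199.7, 197 and 191 CPM in WT libraries, and Oas3 at 721, 741 and 648 CPM in MKO libraries, against 971, 963 and 969 CPM in WT libraries. Both were among the members with the smallest differences, at -0.36 for Oas2 and -0.37 for Oas3 at 3 h, and neither was called at 3 h with library-size scaling. Oas1g differed by -0.62 at 3 h and -0.56 at 0 h.

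The Mx proteins are dynamin-like GTPases that trap viral nucleocapsids, in the nucleus for mouse Mx1 and in the cytoplasm for mouse Mx2. Mx1 was measured at 3 h at 245, 229 and 215 CPM in MKO libraries, against 393, 393 and 367 CPM in WT libraries. At 0 h it was measured at 264, 263 and 290.4 CPM in MKO libraries, against 441, 428 and 388 CPM in WT libraries. The genotype groups did not overlap, with log2 fold changes of -0.74 at 3 h and -0.62 at 0 h. Mx2 was measured at 3 h at 28.9, 33.2 and 28.4 CPM in MKO libraries, against 63.2, 66.3 and 72.6 CPM in WT libraries. Its 0 h levels were 28.5, 28.1 and 31.5 CPM in MKO libraries, against 43.1, 44.1 and 43.0 CPM in WT libraries. The 6 MKO libraries all lay between 28.1 and 33.2 CPM, whereas the WT libraries were higher at 3 h than at 0 h; the genotype difference was -1.16 ± 0.079 (SE), edgeR adjusted p = 5.09e-08 at 3 h and -0.56 at 0 h.

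Among the nucleic acid sensors, Ifih1 (MDA5), which detects long double-stranded RNA, had the widest difference at 3 h. It was measured at 3 h at 254, 240.4 and 250.1 CPM in MKO libraries, against 503, 501 and 521 CPM in WT libraries. The 0 h libraries gave 203, 208 and 176 CPM in MKO libraries, against 271, 269 and 287 CPM in WT libraries. The MKO level was 48.8% of WT at 3 h (-1.03 ± 0.063 (SE), edgeR adjusted p = 2.00e-08) and 70.9% at 0 h. Ddx58 (RIG-I), which detects RNA with a 5′ triphosphate, was measured at 3 h at 335, 339 and 347 CPM in MKO libraries, against 530.2, 517 and 503 CPM in WT libraries. Before LPS, levels were 293, 307 and 280.3 CPM in MKO libraries, against 448, 452 and 404 CPM in WT libraries. Its difference was -0.60 at 3 h and -0.57 at 0 h, without overlap.

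Zbp1, which senses Z-form nucleic acid and starts necroptosis, was measured at 3 h at 329, 339 and 347 CPM in MKO libraries, against 562, 555 and 548 CPM in WT libraries. Without LPS it stood at 328, 326 and 375 CPM in MKO libraries, against 522, 512 and 469 CPM in WT libraries. The log2 fold change of Zbp1 was -0.72 at 3 h and -0.55 at 0 h. Eif2ak2 (PKR), the kinase that halts translation on binding double-stranded RNA, was measured at 3 h at 201, 198 and 193 CPM in MKO libraries, against 249.6, 252 and 237 CPM in WT libraries. Values at 0 h were 184, 191 and 156 CPM in MKO libraries, against 219, 214 and 215 CPM in WT libraries. This was the smallest difference of any member at 3 h, at -0.32 ± 0.068 (SE), edgeR adjusted p = 0.00177, and the call was lost with library-size scaling; at 0 h its difference was -0.29, and -0.18 without the third MKO 0 h library. Dhx58 (LGP2), a regulator of the other 2 helicases, differed by -0.51 at 3 h and -0.46 at 0 h.

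Isg15 is a ubiquitin-like protein that is attached to other proteins; Herc6 is its main ligase in mouse, and Usp18 removes it and also restrains the interferon receptor. Isg15 was measured at 3 h at 276, 256 and 229 CPM in MKO libraries, against 535, 571 and 532 CPM in WT libraries. Measured at 0 h, it was at 234, 205 and 262 CPM in MKO libraries, against 359, 384 and 328 CPM in WT libraries. The genotype groups did not overlap, and the difference was -1.11 ± 0.090 (SE), edgeR adjusted p = 2.97e-07 at 3 h and -0.61 at 0 h. Usp18 was measured at 3 h at 105, 109.5 and 97.7 CPM in MKO libraries, against 186, 185 and 171 CPM in WT libraries. At 0 h it was measured at 87.4, 81.8 and 96.2 CPM in MKO libraries, against 164, 164 and 132 CPM in WT libraries. Its MKO level was 57.6% of WT at 3 h and 57.7% at 0 h, with log2 fold changes of -0.80 and -0.79. Herc6 was measured at 3 h at 255, 235 and 268 CPM in MKO libraries, against 352, 351 and 326 CPM in WT libraries. Its 0 h levels were 213, 221 and 201 CPM in MKO libraries, against 269, 268 and 268 CPM in WT libraries. Herc6 differed less, by -0.44 at 3 h and -0.34 at 0 h. Trim25, a ubiquitin and ISG15 ligase that acts with RIG-I, differed by -0.42 and -0.33. Of the other enzymes of ISG15 conjugation, Ube2l6 was lower in MKO at both times (-0.42 at 3 h and -0.32 at 0 h), and Uba7 was called lower at 3 h only (-0.20; -0.14 at 0 h), with no test passed for a difference between the times (interaction -0.06, edgeR adjusted p = 0.772).

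Parp9, Dtx3l and Parp14 act in ADP-ribosylation, with Parp9 and Dtx3l forming a complex. Parp14 was measured at 3 h at 858, 844 and 882 CPM in MKO libraries, against 1459.7, 1469 and 1500.2 CPM in WT libraries. The 0 h libraries gave 732, 719 and 574 CPM in MKO libraries, against 890.2, 882 and 932 CPM in WT libraries. The difference was -0.78 ± 0.073 (SE), edgeR adjusted p = 1.41e-06 at 3 h and -0.42 at 0 h, and the third MKO 0 h library was the lowest of all. Parp9 was measured at 3 h at 248, 254 and 249 CPM in MKO libraries, against 322, 325 and 319 CPM in WT libraries, and Dtx3l at 267, 269 and 271 CPM in MKO libraries, against 370.4, 372 and 358 CPM in WT libraries. At 0 h Parp9 was measured at 233, 228 and 226 CPM in MKO libraries, against 286, 282 and 264 CPM in WT libraries. The groups of neither gene overlapped. Parp9 differed by -0.36 at 3 h and Dtx3l by -0.45. These genes overlap on opposite strands over 9.4% of Parp9 exons, and reads there cannot be told apart without strand.

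Stat2, the subunit of the ISRE-binding complex that carries its activation domain, was measured at 3 h at 348, 335 and 311 CPM in MKO libraries, against 460.2, 455 and 429.5 CPM in WT libraries. Before LPS, levels were 429, 426 and 429 CPM in MKO libraries, against 592, 602 and 612 CPM in WT libraries. It was lower in MKO at both times, with log2 fold changes of -0.44 and -0.49, and lower at 3 h than at 0 h in both genotypes. Trim30a, which restrains Toll-like receptor signalling in mouse, was measured at 3 h at 534, 532 and 541 CPM in MKO libraries, against 799.9, 809 and 761 CPM in WT libraries. Without LPS it stood at 474, 501 and 453 CPM in MKO libraries, against 665, 665 and 635 CPM in WT libraries. Its difference was -0.56 at 3 h and -0.46 at 0 h. Rtp4, a receptor-transporting protein that binds viral RNA, was measured at 3 h at 278, 283 and 273 CPM in MKO libraries, against 463, 475 and 464 CPM in WT libraries. Values at 0 h were 261, 259 and 314 CPM in MKO libraries, against 413, 416 and 326 CPM in WT libraries. Its groups did not overlap at either time, with differences of -0.75 and -0.47. Ifi35 differed by -0.50 at 3 h and -0.43 at 0 h, with 16.8% of its exons overlapped by a gene on the opposite strand.

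Rsad2 (viperin) makes a chain-terminating nucleotide, and its neighbour Cmpk2 is a nucleotide kinase that supplies its substrate. Rsad2 was measured at 3 h at 813, 830.0 and 889 CPM in MKO libraries, against 2466, 2446 and 2561 CPM in WT libraries. Measured at 0 h, it was at 693, 727 and 665 CPM in MKO libraries, against 1024, 1015 and 964 CPM in WT libraries. The MKO 3 h libraries were below the WT 0 h libraries, and the 3 h difference was -1.56 ± 0.052 (SE), edgeR adjusted p = 5.48e-11, or 33.9% of the WT level. Cmpk2 was measured at 3 h at 357, 368 and 374 CPM in MKO libraries, against 927, 937 and 877 CPM in WT libraries. At 0 h it was measured at 345, 343 and 347 CPM in MKO libraries, against 579, 596 and 524 CPM in WT libraries. Cmpk2 was at 40.1% of WT at 3 h and 60.9% at 0 h, and the 6 MKO libraries were all below the 6 WT libraries. Isg20, an exonuclease that degrades RNA, was measured at 3 h at 57.6, 62.1 and 52.9 CPM in MKO libraries, against 113, 105 and 104 CPM in WT libraries. Its 0 h levels were 47.3, 48.0 and 60.2 CPM in MKO libraries, against 98.5, 99.3 and 75.6 CPM in WT libraries. Its difference was -0.90 at 3 h and -0.81 at 0 h.

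Ifitm3 was measured at 3 h at 993, 996 and 915 CPM in MKO libraries, against 1458, 1457 and 1404 CPM in WT libraries. The 0 h libraries gave 942, 941 and 1319 CPM in MKO libraries, against 1476, 1523 and 1213 CPM in WT libraries. The groups were apart at 3 h (-0.57 ± 0.11 (SE), edgeR adjusted p = 9.90e-04) and overlapped at 0 h, where the third MKO library was above the third WT library. The 0 h call (-0.40 ± 0.11 (SE), edgeR adjusted p = 0.0152) was lost when any 1 of the first 2 libraries of either genotype was left out, with values from -0.36 to -0.31, and also with library-size scaling, with only the groups compared, or with replicates 1 and 2 summed. Bst2 was measured at 3 h at 433, 421 and 372 CPM in MKO libraries, against 621, 649 and 613 CPM in WT libraries. Before LPS, levels were 419, 367 and 486 CPM in MKO libraries, against 640.3, 665 and 555 CPM in WT libraries. Bst2 was 65.1% of WT at 3 h and 68.3% at 0 h, without overlap.

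Slfn5, a Schlafen family member, was measured at 3 h at 623, 594 and 629.6 CPM in MKO libraries, against 940.1, 945 and 898 CPM in WT libraries. Without LPS it stood at 523, 547 and 337 CPM in MKO libraries, against 629, 616 and 734 CPM in WT libraries. The third library was the lowest in MKO 0 h and the highest in WT 0 h, and the differences were -0.59 at 3 h and -0.49 at 0 h. The 0 h difference was -0.29 without the third MKO 0 h library and -0.21 without the third library of both 0 h groups, both still called, and the call was lost with only the groups compared and with library-size scaling. Ifi44 was measured at 3 h at 208, 219.8 and 215 CPM in MKO libraries, against 323, 314 and 305 CPM in WT libraries, a log2 fold change of -0.55. Xaf1, a pro-apoptotic factor that antagonises XIAP, was measured at 3 h at 119.7, 123 and 112 CPM in MKO libraries, against 183, 184 and 190.1 CPM in WT libraries, a log2 fold change of -0.66. At 0 h both were lower in MKO without overlap, with log2 fold changes of -0.45 for Ifi44 and -0.41 for Xaf1.

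In WT macrophages, 3 h of LPS raised 17 of the 37 members and lowered 1, Stat2, and 19 did not pass the test. Of all genes tested, 17.8% were called higher and 14.6% lower. The members' median log2 fold change was 0.19, and every 3 h library was above every 0 h library for 24 members, against 24.1% of all genes. The largest increases were those of Oasl1 (1.44 ± 0.081 (SE), edgeR adjusted p = 2.32e-09), Rsad2 (1.32 ± 0.052 (SE), edgeR adjusted p = 3.51e-11), Ifih1 (0.88) and Ifit1 (0.88). Parp14 rose by 0.71, Cmpk2 by 0.69, Mx2 by 0.64, Isg15 by 0.61 and Slfn5 by 0.49. The other 8 increases were of 0.35 or less: Herc6, Rtp4, Trim30a, Ddx58, Parp9, Oasl2, Ifi44 and Eif2ak2, of which Parp9, Oasl2, Ifi44 and Eif2ak2 turned slightly negative (-0.04 to -0.01) with library-size scaling. That scaling moved the median of all genes to -0.23 and that of the members to -0.04, with 9.7% of genes called higher and 41.8% lower, and gave 8 members higher and 9 lower. Library-size scaling lost the calls of Slfn5, Herc6, Rtp4, Trim30a, Ddx58, Parp9, Oasl2, Ifi44 and Eif2ak2. Summing replicates 1 and 2 lost the same calls except those of Herc6 and Trim30a. The Eif2ak2 call was lost without any 1 of 10 libraries. The Rtp4 call was lost without any 1 of the WT 3 h libraries or the third WT 0 h library, where its value was 0.17. The Ifi44 call was lost without the first or second WT 3 h library or the third WT 0 h library.

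Stat2 fell to 460.2, 455 and 429.5 CPM at 3 h, against 592, 602 and 612 CPM at 0 h in WT, a log2 fold change of -0.43 ± 0.051 (SE), edgeR adjusted p = 1.32e-05. Among members that did not pass the test in WT, Ifit2 had a log2 fold change of 0.11, Ifit3 -0.07, Ifit3b -0.03, Ifit1bl1 0.09, Oas1a -0.02, Mx1 -0.13, Bst2 0.02 and Ifitm3 0.04. Usp18 (0.24, edgeR adjusted p = 0.0513) and Isg20 (0.23) did not pass either. Without the third WT 0 h library, 3 members were called lower: Stat2, Ifit3 and Mx1. In that setting 15% of all genes were called lower.

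In MKO macrophages, LPS raised 8 members and lowered Stat2 and Mx1. Of all genes tested, 9.75% were called higher and 6.08% lower. The members' median log2 fold change was 0.06. The increases were those of Oasl1 (0.61 ± 0.080 (SE), edgeR adjusted p = 7.02e-05), Parp14 (0.35), Ifih1 (0.35), Rsad2 (0.28), Herc6 (0.25), Ddx58 (0.21), Trim30a (0.17) and Oas3 (0.17). Stat2 fell by 0.37 and Mx1 fell by 0.25 on the log2 scale. Ifit1 (0.16), Isg15 (0.12), Cmpk2 (0.09), Mx2 (0.04) and Slfn5 (0.39) did not pass the test in MKO. The Oas3 call (edgeR adjusted p = 0.0476) was lost without any 1 of 10 libraries, with values from 0.10 to 0.18. It was also lost with RLE scaling, the replicate block and the filter at 5 CPM. The Trim30a call was lost without any 1 of 5 MKO libraries. Both the Oas3 and Trim30a calls were lost with no filter and with only the groups compared. The Mx1 and Ddx58 calls were lost without the second or the third MKO 3 h library, and the Herc6 call without the third. Library-size scaling, and summing replicates 1 and 2, each lost the Oas3, Trim30a, Ddx58 and Herc6 calls. Summing also lost the Mx1 call. The count of increases was 4 without the third MKO 3 h library, 5 without the second, and 12 without the third WT 0 h library. In these settings 7.2%, 7.22% and 11.3% of all genes were called higher, in that order. It was 18 without the third library of both 0 h groups, where 12.8% of all genes were called higher. With library-size scaling 4 members were higher and 4 lower, the median of all genes was -0.10 and that of the members -0.04. Under that scaling 6.72% of genes were called higher and 14.1% lower.

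**Figure D4:**
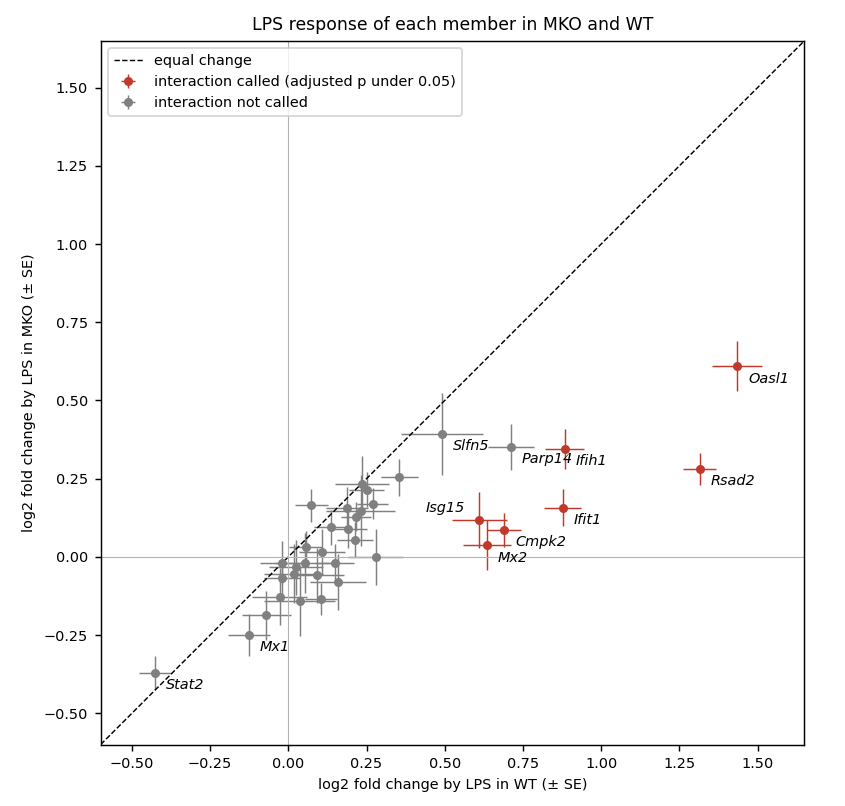
Log2 fold change by LPS of each member in MKO (vertical axis) against WT (horizontal axis), with standard errors; the dashed line marks equal change. The 7 members whose response differed between genotypes lie below the line, with Rsad2 at 0.28 in MKO and 1.32 in WT.

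Whether the LPS response itself differed between genotypes was tested as an interaction, the LPS change in MKO minus that in WT; these comparisons share the same 12 libraries. It passed the test for 7 of 37 members, all with a lower value in MKO, and for 0 in the other direction (0 also with DESeq2, and 0 at an unadjusted p under 0.05). Of all genes tested, 4.41% were called negative and 2.39% positive. The interaction of Rsad2 was -1.03 ± 0.072 (SE), edgeR adjusted p = 5.00e-07, so its LPS response in MKO was 48.8% of that in WT as a ratio of fold changes. Oasl1 gave -0.83 ± 0.11 (SE), edgeR adjusted p = 2.56e-04, and Ifit1 gave -0.72 ± 0.084 (SE), edgeR adjusted p = 6.69e-05. Cmpk2 and Mx2 each gave -0.60 and Ifih1 gave -0.54. Isg15 gave -0.49 ± 0.13 (SE), edgeR adjusted p = 0.0288, a call lost without any 1 of 7 libraries, with library-size scaling, and with replicates 1 and 2 summed. Ifih1 was also lost with replicates 1 and 2 summed. The other 30 members did not pass. Parp14 came close (-0.36 ± 0.10 (SE), edgeR adjusted p = 0.0529). The values of Usp18 and Stat2 were -0.003 and 0.06, which does not show that their responses were equal.

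**Figure D5:**
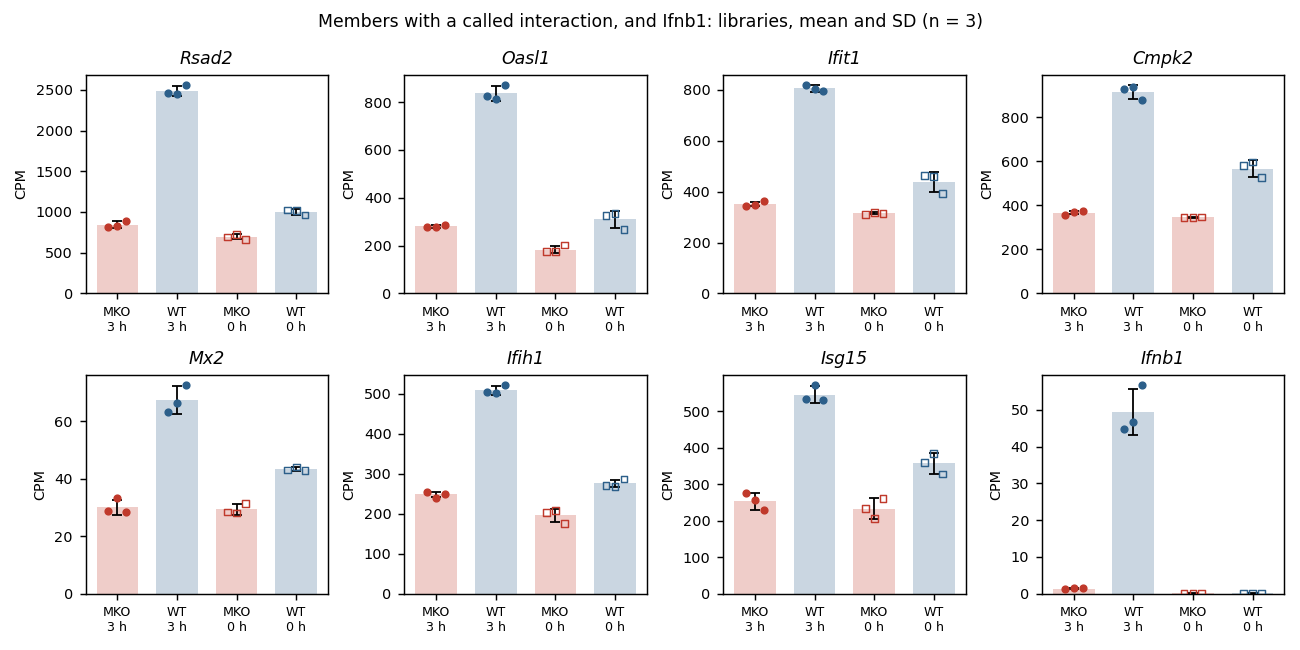
TMM-scaled CPM of the 7 members with a called interaction and of Ifnb1; points are libraries, bars are means with SD (n = 3). Rsad2 averaged 844 CPM in MKO and 2491 CPM in WT libraries at 3 h, and Ifnb1 1.38 CPM in MKO and 49.4 CPM in WT libraries.

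Members with and without an ISRE core in the promoter window were set side by side, with no test. The 17 members with a core had a median log2 fold change of -0.62 at 3 h and -0.53 at 0 h between genotypes, and the 11 members with a promoter entry but no core had -0.58 and -0.43. Of the 7 interactions, 4 were among members with a core, 2 among those without, and 1, Mx2, had no promoter entry.

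Ifnb1, the type I interferon that LPS induces, was far lower in MKO at 3 h. It was measured at 3 h at 1.16, 1.42 and 1.55 CPM in MKO libraries, against 44.9, 46.7 and 56.7 CPM in WT libraries. At 0 h the whole MKO group held 5 Ifnb1 counts and the whole WT group 5. The 3 h difference was -5.15 ± 0.17 (SE), edgeR adjusted p = 5.48e-11, and the LPS response differed between genotypes (-4.94 ± 1.12 (SE), edgeR adjusted p = 0.0142). The 14 Ifna genes listed together held 1 count in MKO 3 h libraries, against 64 in WT 3 h libraries, and 0 at 0 h in both genotypes. For a count of 0, the upper limit at 95% confidence is 3 counts. Ifng, the type II interferon, was higher in MKO (1.85 ± 0.37 (SE), edgeR adjusted p = 0.00114 at 3 h), at 1.68, 2.29 and 1.83 CPM in MKO libraries, against 0.501, 0.708 and 0.392 CPM in WT libraries. These low levels rest on 105 counts over the MKO 3 h group and 26 over the WT 3 h group. Which cells held the Ifng RNA was not tested. Markers of plasmacytoid dendritic cells, a major source of type I interferon, summed to 3.43 to 5.14 CPM in MKO 3 h libraries, against 6.38 to 7.15 CPM in WT 3 h libraries. At 0 h the sums overlapped, at 3.08 to 5.33 CPM in MKO and 4.76 to 5.35 CPM in WT libraries. Of these 6 markers 2 were under 1 CPM in every library. At 0 h Pacsin1 was higher in every MKO library (0.569 to 1.4 CPM, against 0.129 to 0.3 CPM in WT libraries), and Cox6a2 was lower. The summed markers of B cells and of conventional dendritic cells were higher in every MKO library at both times. Those of T and NK cells and of mesothelial cells or fibroblasts were lower in every MKO library at both times. The part of any of these cells was not tested.

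The receptor and the ISRE-binding complex were lower in MKO as well. Over all genes tested, 19.8% were called higher and 23% lower in MKO at 3 h, and 16.5% higher and 16.4% lower at 0 h. Of 13 receptor and Jak-Stat genes tested, 0 were higher (1 at an unadjusted p under 0.05) and 8 lower in MKO at 3 h. At 0 h 2 of these genes were higher and 9 lower. Ifnar1 differed by -0.31 at 3 h and -0.44 at 0 h, and Ifnar2 by -0.30 and -0.36. Irf9 differed by -0.37 and -0.33. Of 7 interferon regulatory factors tested, 0 were higher (0 unadjusted) and 6 lower at 3 h, and 2 were higher and 4 lower at 0 h. Irf7, the factor that amplifies interferon production, was measured at 3 h at 1150.3, 1154 and 1183 CPM in MKO libraries, against 2059.8, 2022 and 2020.3 CPM in WT libraries. Values at 0 h were 1058, 1049 and 1284 CPM in MKO libraries, against 2052, 2034 and 1787 CPM in WT libraries. It was lower in MKO at both times, with log2 fold changes of -0.81 and -0.79, and its LPS response passed no test in either genotype. Irf1 went the other way at 0 h, called higher in MKO (0.18), and was lower at 3 h (-0.63), a difference between times that passed the test (-0.81 ± 0.081 (SE), edgeR adjusted p = 1.70e-05). Of 14 genes of the induction pathway, 9 were lower and 0 higher (0 unadjusted) at 3 h, and 5 lower and 0 higher (2 unadjusted) at 0 h. Ticam1, the adaptor that leads from Tlr4 to Ifnb1, was lower at 3 h (-0.37) and not called at 0 h (0.14), with an interaction of -0.51 ± 0.11 (SE), edgeR adjusted p = 0.0136. Tlr4 itself passed the test at neither time (-0.04 and -0.21).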

How the data were processed

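Peritoneal macrophages were lysed in TRIzol and their total RNA went into Illumina libraries, per the labels' protocols. Per the submitters' processing notes, reads were trimmed with fastp and the build was mm10. How reads were aligned and counted, with which annotation and strand setting, is not given in the sources used here. The authors deposited 1 table with raw counts per gene and with TPM values, per the file headers. Columns were matched to samples by title. Deposited TPM was used only for levels between genes.

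The deposited counts of all 12 libraries entered 1 model with a mean per group, fitted by the quasi-likelihood method of edgeR 4.0.16 (R 4.3.3) after TMM scaling; filterByExpr kept 12455 of the 19195 genes with any count. P-values were adjusted by Benjamini-Hochberg over all genes tested, and a gene was called at an adjusted p under 0.05. Standard errors come from the fitted log2 fold change and its F statistic. Alternatives were DESeq2 1.42.0, other scaling, other filters, a replicate block and leaving out libraries. Leaving out the third library of both 0 h groups, and summing replicates 1 and 2, were added after seeing the data. The test was also run on simulated counts, drawn with the mean levels and the common dispersion of these data, and no result here rests on them. 1 count was worth 0.0469 to 0.0647 CPM. The members and gene lists were chosen with earlier results of these data known. Named library by library are, per role, the member with the highest TPM and up to 3 with the smallest p at 3 h, and per comparison the 3 largest and 3 smallest called changes. GENCODE M21 held all 37 members, 32 with the same start and end, and gave exons for the check of shared 50-base stretches. Promoters are RefSeq's on GRCm38.p6.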

Additional observations from a re-analysis of the deposited data

Results flagged for a closer look

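The LPS response differed between MKO and WT macrophages for 7 members, by the interaction test of edgeR. On the log2 scale the response in MKO minus that in WT was -1.03 for Rsad2, -0.83 for Oasl1, -0.72 for Ifit1, -0.60 for Mx2, -0.60 for Cmpk2, -0.54 for Ifih1 and -0.49 for Isg15. Rsad2, Oasl1, Ifit1, Cmpk2 and Mx2 were called under every alternative run. Groups held 3 libraries, so single libraries were not screened for outliers.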

How the results depend on the processing

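Across 127 member results and 21 settings, genotype differences kept their sign throughout, and 32 to 37 members were called lower at 0 h and at 3 h. The LPS counts moved. In WT, 17 members were higher and 1 lower. With library-size scaling this became 8 higher and 9 lower, against 9.7% and 41.8% of all genes. It was 10 higher with replicates 1 and 2 summed, where 11.1% of all genes were called higher. Without the third library of both 0 h groups 5 were lower, where 21.7% of all genes were called lower. Leaving out 1 library gave 14 to 20 higher and 1 to 3 lower, against 14.5% to 20.1% and 11.6% to 18.4% of all genes. In MKO, 8 were higher and 2 lower. With library-size scaling this became 4 and 4, against 6.72% and 14.1% of all genes. Replicates 1 and 2 summed gave 4 and 1, against 5.32% and 1.99% of all genes. Without the third library of both 0 h groups it was 18 and 4, against 12.8% and 7.92% of all genes. Leaving out 1 library gave 4 to 12 higher and 1 to 4 lower, against 7.2% to 11.3% and 3.4% to 7.01% of all genes. The interaction count of 7 became 11, with 1 positive (Oas1a), without the third library of both 0 h groups, where 13.5% of all genes were called negative and 6.66% positive, and ran from 6 to 9 when 1 library was left out. With 1 library left out, 3.24% to 6.34% of all genes were called negative. The cause of these changes was not tested.

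Some small LPS changes turned round. In WT with library-size scaling, the log2 fold change was -0.13 for Ifit1bl1, -0.12 for Ifit2, -0.01 for Oasl2 and for Parp9, -0.04 for Eif2ak2, -0.21 for Bst2, -0.19 for Ifitm3 and -0.03 for Ifi44. In MKO it was -0.05 for Mx2 and -0.01 for Cmpk2. Without the third library of both 0 h groups it was -0.02 for Ifit1bl1, -0.06 for Bst2 and -0.07 for Ifitm3 in WT. With replicates 1 and 2 summed it was 0.04 for Ifit3b and 0.01 for Oas1a. Bst2 was 0 with no filter and -0.01 with only genes of at least 5 CPM. The Usp18 interaction was 0 with DESeq2, RLE scaling and the 5 CPM filter, 0.01 with no filter, 0.13 with library-size scaling and 0.16 without the third library of both 0 h groups. Leaving out 1 library gave -0.01 to 0.16 for Ifit1bl1, -0.14 to 0.05 for Ifit3b, -0.08 to 0.02 for Oas1a, -0.06 to 0.07 for Bst2 and -0.06 to 0.10 for Ifitm3 in WT, -0.04 to 0.08 for Mx2 in MKO, and -0.06 to 0.09 for the Usp18 interaction.

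Whether same-numbered libraries share an origin is not given in the labels. They did not deviate together in every pair (correlations of -0.41 to 0.09), and 4 of 12 libraries correlated best with their own number. With groups of 3 libraries, these values cannot exclude a shared origin. With the replicate block, 37 members were lower in MKO at both times, against 14.8% of all genes at 0 h and 21.1% at 3 h. LPS raised 16 members in WT and 7 in MKO, against 16.5% and 8.26% of all genes. In that setting 6 interactions were called, all negative and without Isg15, against 3.71% of all genes called negative.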
